A study of Mus musculus with 6 samples.

Results

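The genes Tmem26, Tnfrsf9, Cited1, Tbx1, Cd40 and Sp100 are markers by which beige adipocytes are told from white and brown adipocytes. These 6 protein-coding genes were examined among 21851 in the GENCODE annotation of the mouse genome, build mm10. Their open chromatin was taken as all ATAC-seq peaks with a summit between 50 kb before and 50 kb after the gene, and as the promoter peaks within 1 kb of a transcription start site. Peaks of all libraries that overlapped by at least 1 bp were joined into 194610 open regions, of which 109 lay in the 6 windows. No region lay in the window of more than 1 of these genes. The genes themselves lie at chr10:68723646-68782650 (Tmem26, plus strand), chr4:150914562-150946102 (Tnfrsf9, plus), chrX:102247381-102252181 (Cited1, minus), chr16:18580979-18590671 (Tbx1, minus), chr2:165055627-165072948 (Cd40, plus) and chr1:85649988-85709998 (Sp100, plus).

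The libraries came from wild type male C57BL/6J mice of 3 to 4 weeks, with 2 libraries for each of beige, white and brown adipocytes and 50000 nuclei per transposition. For beige and white adipocytes the stromal vascular fraction, which holds the fat cell progenitors, was taken from inguinal fat; for brown adipocytes it was taken from brown adipose tissue. All cells were collected after 7 days of differentiation. All induction media held insulin and 0.5 mM isobutyl methylxanthine. For insulin the paper gives a lower dose in beige than in white medium, and the labels give the same dose for all. Beige and brown cells were also given 1 μM rosiglitazone, 1 nM T3 and dexamethasone at 5 μM, whereas white cells had dexamethasone at 1 μM and neither rosiglitazone nor T3. By the paper's methods, the later beige medium held only insulin, T3 and rosiglitazone of these, and the later white medium only insulin. Beige and white therefore differed in medium, beige and brown in the depot of origin, and white and brown in both. The paper calls the ATAC-seq libraries of a group biological replicates, without saying whether they are separate animals or cultures. It does not describe the brown libraries, and whether these were prepared and sequenced with the others is not given in the sources used here, so depot and any such difference cannot be told apart.

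Beige adipocytes arise in white fat depots in response to cold or to PPARγ agonists and can burn fuel to make heat, as brown adipocytes do. They keep markers of their own, which include membrane proteins (Tmem26, the TNF receptor family members Tnfrsf9, also called CD137, and Cd40) and nuclear proteins (Cited1, a coactivator that binds CBP and p300, the T-box factor Tbx1, and Sp100, a component of PML nuclear bodies). These markers were defined by RNA or surface protein. An ATAC-seq peak shows accessible DNA, and accessible DNA near a gene is not a measure of its expression.

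The 6 lists held 109143 to 127490 peaks each. Peak lists hold no reads, so reads per region could not be compared. The paper lists more mapped reads, and a higher mapped share, for both white than for both beige libraries, and gives none for brown. The part of depth in the results below was not tested. A missing peak shows only that none passed the authors' q value of 0.05, a -log10 q of 1.3. In bulk nuclei, fewer cells with an open site and less opening per cell cannot be told apart. Comparing 2 libraries with 2 allows no two-sided exact permutation p below 0.333, and comparing 2 with 4 none below 0.133, so values are given for every library without a test. As a check of the labels, 7 of 8 adipocyte genes had a promoter peak in all 6 libraries. Ucp1, the uncoupling protein gene of heat-producing fat cells, was open at its promoter in both brown libraries, while neither the beige nor the white lists held a peak there. The promoter of Zic1, a brown depot marker, had one in both brown libraries, in beige replicate 2 and in no white library. Most genes of the same lists did not tell the conditions apart. Of 8 thermogenic genes, 6 had a promoter peak in all 6 libraries, and of 8 brown-selective genes 5 did. Epsti1, also brown-selective, had one only in white replicate 2. Of 8 macrophage genes, 2 had a promoter peak in every library (Cd68 and Adgre1) and 4 had none in any, and of 6 lymphocyte genes 5 had none in any. Of 6 endothelial genes 3, of 6 progenitor genes 4 and of 4 mesothelial genes 1 had a promoter peak in every library. The part of other cells in the results below was not tested.

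Of the 109 open regions around the beige markers, 4 were open in both beige libraries and in no white library. This is 3.67% of the regions, against 4.5% of all regions of the genome. As many, 4, were open in both white libraries and in no beige library, which is 3.67% against 1.98% genome-wide. With all 6 lists, open chromatin present in beige and missing in white was thus not more frequent around these markers than elsewhere. Single libraries moved both counts. Beige-not-white regions numbered 17 of 106 without beige replicate 1 (13.5% genome-wide), 11 of 108 without beige replicate 2 (10.99%) and 8 of 98 without white replicate 1 (8.28%). They numbered 6 of 104 without white replicate 2 (9.12%) and 5 of 82 among peaks at a q under 0.00001 (5.9%). White-not-beige regions numbered 10 of 98 without white replicate 1 (10.2%) and 21 of 104 without white replicate 2 (12.6%), and 0 among peaks at a q under 0.00001. At least 1 beige-not-white region was found at 3 of the 6 genes (Tmem26, Tbx1 and Cd40), and 46.5% of all protein-coding genes had one within 50 kb. The sequences of the regions of Tbx1 and Tmem26 open in beige and not in white are shown first, because these regions separate beige from white by presence alone. They were read from the mm10 genome on the strand of the gene, whole or for 100 bp to each side of the summit, and capitals mark matches to 1 of 16 motifs searched on both strands.
Tbx1, chr16:18591806-18592006, minus strand: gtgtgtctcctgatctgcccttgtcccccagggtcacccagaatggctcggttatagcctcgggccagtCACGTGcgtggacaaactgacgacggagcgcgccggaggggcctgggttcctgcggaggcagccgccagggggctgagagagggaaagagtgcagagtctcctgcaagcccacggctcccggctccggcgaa
Tmem26, chr10:68721113-68721313, plus strand: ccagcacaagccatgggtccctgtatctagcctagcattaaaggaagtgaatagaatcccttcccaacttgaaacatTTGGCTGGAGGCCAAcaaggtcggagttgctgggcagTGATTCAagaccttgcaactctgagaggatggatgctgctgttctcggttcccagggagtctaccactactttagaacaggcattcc
Tmem26, chr10:68692490-68692689, plus strand: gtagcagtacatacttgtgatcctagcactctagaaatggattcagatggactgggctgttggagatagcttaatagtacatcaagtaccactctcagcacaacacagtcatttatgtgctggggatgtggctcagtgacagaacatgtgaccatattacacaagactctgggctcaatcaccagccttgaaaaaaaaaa

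In the Tbx1 sequence the capitals mark the E-box CACGTG, which is found in 3.89% of all regions within 100 bp of the summit. In the first Tmem26 sequence they mark a full NFI site (0.546% of all regions) and the AP-1 site TGANTCA (21.2%). No motif searched had a match in the second Tmem26 sequence. A match describes the letters in the window and not binding.

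The region of Cd40 was the only 1 of the 109 open in both beige libraries and in no white or brown library. Its -log10 q was 11.6 in beige replicate 1 and 18.7 in beige replicate 2. It lies in an intron of Cd40, which encodes the receptor for CD40 ligand. Genome-wide, 1.94% of regions were of this kind, and 26.7% of protein-coding genes had 1 or more within 50 kb.

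The region of Tbx1 was centred at -1235 bp from the nearest start site, where negative distances are upstream, and so lay just beyond the 1 kb limit of the promoter. Tbx1 encodes a transcription factor of the T-box family. The -log10 q of this region was 13.7 and 6.3 in the beige libraries and 6.2 in brown replicate 1, with no peak in brown replicate 2. The window holds the first bases of the exon of 4930588K23Rik, a long noncoding RNA gene on the other strand. Both regions of Tmem26, a transmembrane protein gene used as a surface marker of beige cells, lay upstream of it, at -2533 and -31144 bp. The first had a -log10 q of 3.7 and 13.0 in beige and 9.0 in brown replicate 2, and the second 4.0 and 11.4 in beige and 4.8 in brown replicate 1. All 3 regions were thus also open in 1 of the 2 brown libraries. No region around the markers was open in both beige and both brown libraries and in no white library, a class that holds 1.25% of all regions.

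The 4 regions open in white and not in beige had a -log10 q of at most 6.3 in white. At both Tmem26 regions above, beige replicate 1 was below that as well (3.7 and 4.0). A region of Cited1 at -11636 bp (-log10 q 2.6 and 3.0 in white) and a region of Cd40 at 383 bp after the start site (3.4 and 4.6) were open in white alone, a class of 1.23% of all regions. The latter lies next to the promoter region of Cd40 that was open in all libraries. Both regions of Tbx1, at -30255 bp and at 43662 bp, were also open in both brown libraries, which made them 2 of 109 regions (1.83%) against 0.243% of all regions. The first lies in a coding exon of Sept5 and Gp1bb and the second in an intron of Gnb1l.

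Set against brown, 2 regions were open in both beige and in no brown library (1.83%, against 4.8% of all regions). These were the Cd40 intron and a Tbx1 region at -3390 bp, whose -log10 q was 5.8 and 5.4 in beige and 6.2 in white replicate 1. In the other direction 7 regions were open in both brown and in no beige library (6.42%, against 1.56%). Of these, 3 were at Tbx1, 2 at Tnfrsf9 and 2 at Sp100. Open in brown alone were 2 of the 7, or 1.83% against 0.877% of all regions. They lay at -39520 bp of Tnfrsf9 (-log10 q 6.3 and 4.7) and at 251 bp of Tbx1 (3.0 and 5.9). The highest -log10 q of any of the 7 regions in brown was 7.9, and among peaks at a q under 0.00001 none of this kind was left. Such regions numbered 11 of 106 without brown replicate 1 (10.05% of all regions), 16 of 107 without brown replicate 2 (8.13%) and 11 of 108 without beige replicate 2 (3.51%). Regions open in beige and not in brown numbered 9 of 106 without brown replicate 1 (9.635%), 11 of 106 without beige replicate 1 (14.85%) and 7 of 108 without beige replicate 2 (11.8%).

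**Figure D1:**
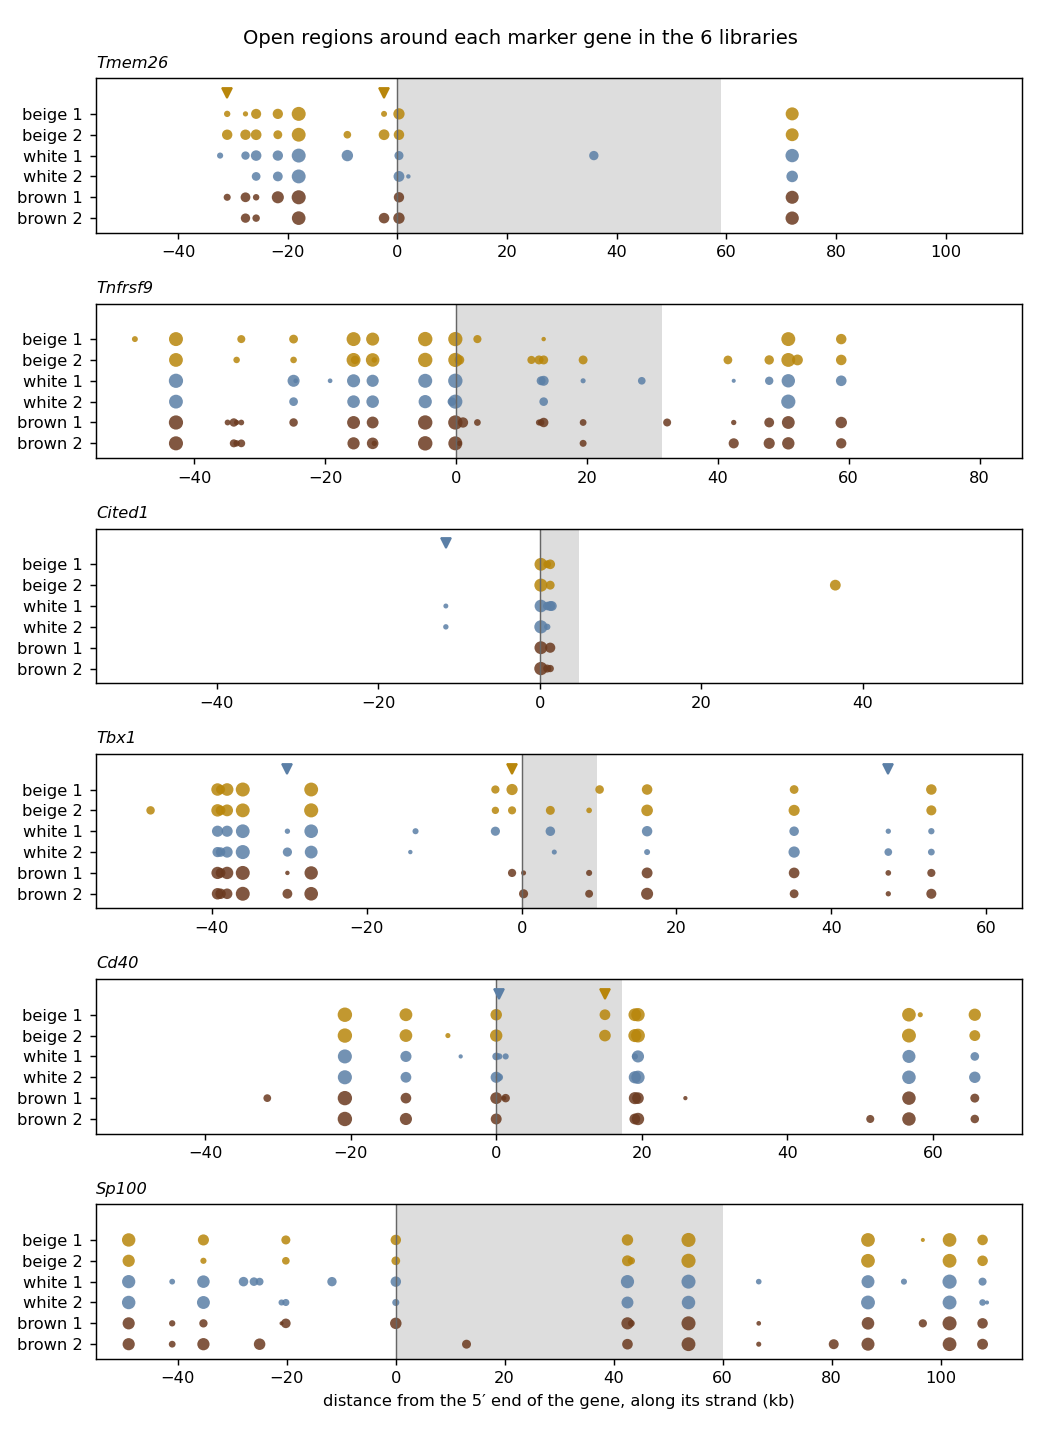
Open regions around the 6 genes by distance from the gene's 5′ end (kb, along its strand), with 1 row per library. Each dot is a region open in that library, its area grows with the rank of the peak's -log10 q in its own list, the grey band is the gene, and triangles mark regions open in both beige and no white library (gold) or both white and no beige library (blue). Gold triangles stand at Tmem26 (2), Tbx1 (1) and Cd40 (1), and the large dots recur in all 6 rows.

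The genes differed in how much open chromatin surrounded them. Tnfrsf9 had 32 regions in a window of 132 kb, and its density of 24.3 regions per 100 kb was above that of 96.9% of protein-coding genes. Cited1 had 6 regions and Tmem26 12, with 5.73 and 7.55 per 100 kb, above 22.0% and 29.0% of genes. Sp100 had 22 regions, Tbx1 20 and Cd40 17. Much of this belongs to neighbours, since the window of Tnfrsf9 takes in Park7 and Camta1, that of Tbx1 Sept5 and Gnb1l, and that of Sp100 Sp140 and A630001G21Rik. Introns held 62 of the 109 regions and intergenic sequence 35. Regions found in a single library made up 33.0% of the 109, against 37.2% of all regions, and 29.4% were open in all 6 libraries, against 30.2%.

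By number of peaks the 3 conditions overlapped. The 6 windows held 65 and 76 peaks in beige, 72 and 57 in white and 74 and 61 in brown, with means of 70.5 ± 7.78, 64.5 ± 10.6 and 67.5 ± 9.19 (SD, n = 2 libraries each). Tmem26 had more peaks in both beige libraries (12 and 11) than in white (9 and 8) or brown (8 and 7). Divided by the length of each list, the order was kept, and 9.06% of protein-coding genes had the same order. Sp100 had fewer, 11 and 10 in beige against 17 and 13 in white and 14 and 13 in brown, an order found at 6.76% of genes. Several peaks can fall in 1 region, however, and by number of open regions Tmem26 had 8 and 9 in beige, 9 and 6 in white and 7 and 6 in brown. Neither it nor any other marker then stood above both other conditions, as 9.12% of genes did. Sp100, with 10 and 10 against 15 and 11 and 14 and 12, still stood below both. Tbx1 had more peaks in both beige libraries than in white (14 and 19 against 13 and 12, and 16 and 12 in brown). The share of all genes with this order against white was not counted. By open regions, however, Tbx1 stood below both once divided by each library's total (11 and 13 against 12 and 12 and 13 and 12), as 6.77% of genes did. The libraries of Tnfrsf9 differed most within a condition, with 13 and 22 peaks in beige and 17 and 9 in white. For Tmem26, the marker with the highest share of beige-not-white regions (16.7%), peaks per list length were correlated with those of genes on other chromosomes. The highest values over the 6 libraries were at Ubald2 (Pearson r = 0.994), Pkn3 (0.982) and Amdhd2 (0.976). The 8373 candidates had at least 10 peaks in every library. The highest of so many correlations over 6 libraries is not evidence of a link.

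**Figure D2:**
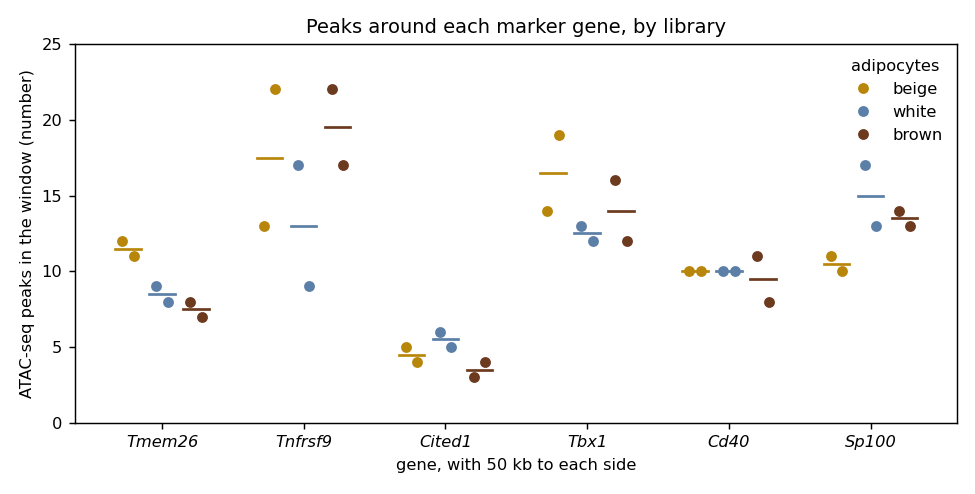
Number of ATAC-seq peaks in the window of each gene, with 50 kb to each side. Points are libraries and lines the mean of the 2 libraries of a condition; only Tmem26 has both beige points above all others, and only Sp100 has both below.

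Promoters of the markers were mostly open in every condition. Those of Tmem26, Cited1 and Cd40 had a peak in all 6 libraries, which is 3 of 6, as against 62% of protein-coding genes. Those of Tnfrsf9 and Sp100 lacked one in brown replicate 2, and that of Tbx1 lacked one in beige replicate 1. Without brown replicate 2, 5 of the 6 promoters were open in all libraries. No marker promoter was open in both libraries of one condition and in no library of another. For comparison, 0.343% of protein-coding genes had a promoter open in both brown and in no beige library, among them Ucp1.

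At the start sites used, the promoter peak of Cited1 was the strongest of the 6 genes. Its -log10 q ranked at the 75.6th and 79.7th percentile of the beige lists, at 72.9 and 80.8 in white and at 76.4 and 81.7 in brown, so that the conditions overlapped. That of Tmem26 ranked at 56.8 and 47.7 in beige, 33.7 and 51.6 in white and 46.4 and 58.0 in brown, again with overlap. Neither promoter thus separated beige from the other cells.

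Only the promoter of Cd40 ranked higher in both beige than in both white libraries. The share of all promoters in that order was not counted. Of all regions open in all 6 libraries, 24.3% ranked higher in beige than in white by -log10 q. The percentiles were 59.3 and 70.2 in beige, 22.7 and 55.6 in white and 63.3 and 52.7 in brown, so that beige and white did not overlap and beige and brown did. The Cd40 promoter is shown for this reason, as the 200 bases before the first base of the gene. Capitals mark a match to NF-kB, a factor activated downstream of CD40 itself, found in 1.74% of all regions, then the GC box GGGCGGG on the other strand (6.21%) and the ETS form CAGGAAG on the other strand (10.2%).
Cd40 promoter, chr2:165055427-165055626, plus strand: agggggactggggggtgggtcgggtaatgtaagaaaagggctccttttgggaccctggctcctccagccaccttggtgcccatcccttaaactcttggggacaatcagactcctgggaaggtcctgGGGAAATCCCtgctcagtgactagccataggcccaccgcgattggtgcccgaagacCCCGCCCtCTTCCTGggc

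The other promoter peaks at the start sites used were weak. In Tnfrsf9 the -log10 q was 2.3 and 7.6 in beige, 7.7 and 5.6 in white and 8.4 in brown replicate 1, at an internal start site. A far stronger peak lay at the annotated 5′ end of Tnfrsf9, at -5680 bp from the nearest start site used (-log10 q 123.1 and 115.1 in beige, 98.8 and 49.96 in white, 159.4 and 80.7 in brown). That peak is also within 1 kb of a start site of Park7, so it cannot be given to 1 of the 2 genes. In Sp100 the values were 10.3 and 7.2 in beige, 8.7 and 4.2 in white and 16.8 in brown replicate 1. In Tbx1 the promoter peaks fell at different places, at 209 bp in beige replicate 2, 9 and 518 bp in white and 214 and 251 bp in brown, with a -log10 q of at most 7.5. Counting the start sites of all transcripts, 5 of the 6 promoters were open everywhere, all but that of Tbx1. The strongest promoter peak of Sp100 then had a -log10 q of 88.1 and 113.8 in beige, 61.3 and 29.6 in white and 103.4 and 63.6 in brown.

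The promoters also differed in base composition. The frequency of CpG within 500 bp of a start site, relative to that given by its C and G content, was 1.03 at the internal start site of Tbx1, above 98.9% of 41438 start sites, and 0.798 and 0.733 at those of Cited1. It was 0.414 at Tmem26, 0.340 to 0.356 at Cd40, 0.165 to 0.293 at Tnfrsf9 and 0.128 to 0.129 at Sp100, where the median of all start sites was 0.562. The start site of Tbx1 richest in CpG was thus the one with peaks in beige replicate 2 and both white libraries, while the brown peaks lay at the upstream start site (0.604).

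**Figure D3:**
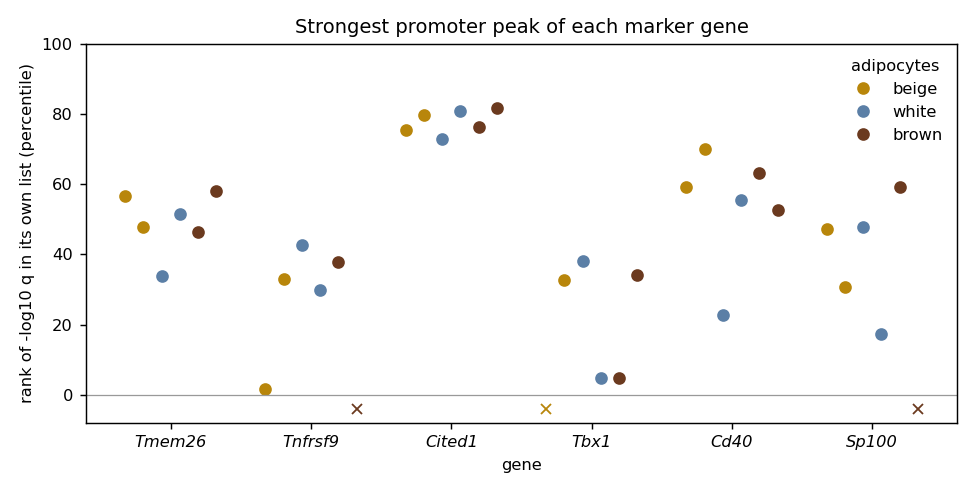
Rank of the -log10 q of the strongest promoter peak of each gene among all peaks of the same list (percentile), 1 point per library in the order beige, white and brown. Crosses under the line are libraries without a promoter peak; the Cited1 points lie between 72.9 and 81.7, and only at Cd40 do both beige points lie above both white points.

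Regions open everywhere were compared by rank. Of the 58720 regions open in all 6 libraries, 32 lay around the markers. Within each library these regions were ranked by the authors' fold enrichment over local background, and a percentile in one library was set beside that in another. In 17 of the 32 regions both beige libraries ranked above both white libraries (53.1%, against 23.2% of all shared regions), and in 4 both white libraries ranked above both beige ones (12.5%, against 24.8%). Beige ranked above brown in 13 (40.6%, against 23.3%) and brown above beige in 6 (18.8%, against 28.8%). Beige ranked above both in 10 (31.2%, against 10.9%) and below both in 1, a region of Sp100 at 101576 bp (3.12%, against 11.7%). With ranks of -log10 q in place of fold, 16 regions ranked higher in beige than in white (24.3% of all shared regions), 3 higher in white (24.6%) and 7 higher in beige than in both (21.9%, against 10.96%). With a beige or white library left out, the shares of all shared regions were higher too. Beige ranked above white in 19 of 32 regions without beige replicate 1 (against 33.2%), 23 of 33 without beige replicate 2 (34.2%), 19 of 33 without white replicate 1 (38.7%) and 21 of 35 without white replicate 2 (37.9%), and in 17 of 32 and 17 of 36 without brown replicates 1 and 2 (23.28% and 23.19%). White ranked above beige in 8 of 32 without beige replicate 1 (36.7%), 7 of 33 without white replicate 1 (39.0%), 6 of 35 without white replicate 2 (41.35%) and 7 of 36 without brown replicate 2 (24.7%). In the 10 regions above both, the lower beige library stood between 0.198 and 28 percentiles above the highest other library. Regions of 1 locus are neighbours and not independent of each other, and these ranks were compared after the counts by presence had been seen.

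**Figure D4:**
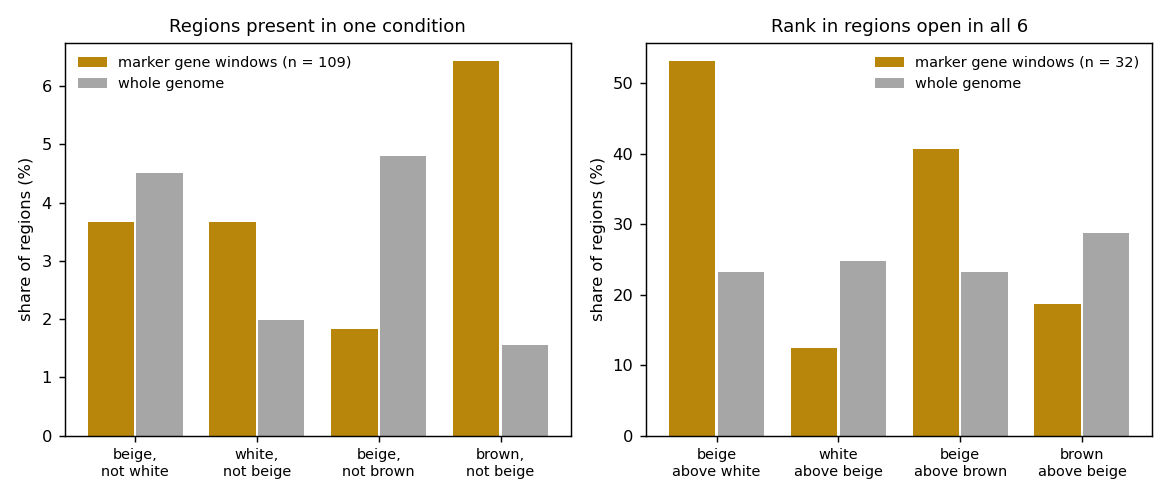
Share of regions (%) in the 6 marker windows (gold) and in the whole genome (grey). Left, regions open in both libraries of one condition and none of the other, out of 109; right, regions open in all 6 libraries in which both libraries of one condition rank above both of the other, out of 32. By presence, beige-not-white is 3.67% against 4.5%; by rank, beige above white is 53.1% against 23.2%.

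Cd40 and Tbx1 made up most of the regions that ranked higher in beige than in white. They were 6 of 7 at Cd40, 5 of 7 at Tbx1, 3 of 6 at Tnfrsf9, 3 of 7 at Sp100, 0 of 4 at Tmem26 and 0 of 1 at Cited1. The regions that ranked higher in white were 3 at Sp100 and 1 at Tnfrsf9. Of the 17 regions, 4 were promoters of another gene and 1 the promoter of a marker, Cd40. The remaining 12 lay at no promoter of the start sites used, though the Sp100 region at 53677 bp lies within 1 kb of a start site of another transcript.

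At Cd40, the region at -12393 bp between Ncoa5 and Cd40 ranked at the 69.6th and 60.9th percentile in beige, 23.5 and 22.9 in white and 21.2 and 50.3 in brown. Both beige libraries were thus above the other 4. Downstream of the gene, a pair of neighbouring regions at 19012 and 19440 bp did the same. The first ranked at 41.0 and 44.0 in beige, 1.3 and 36.1 in white and 28.7 and 13.7 in brown, and the second at 61.6 and 72.7, 33.0 and 60.7, and 21.6 and 38.1. White replicate 2 came within 1 percentile of beige replicate 1 in the latter. The last region that ranked above both, at 56673 bp, lies in a coding exon of Cdh22. The promoter region of Ncoa5, at -20781 bp, ranked at 95.4 and 85.8 in beige, 82.9 and 80.4 in white and 95.5 and 96.8 in brown, and so was higher in brown than in beige.

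At Tbx1, 1 region ranked above both other conditions, at -27183 bp in intergenic sequence. Its ranks were 78.0 and 80.9 in beige, 52.2 and 33.5 in white and 57.8 and 67.1 in brown. The other 4 were at low ranks or also high in brown. At 12506 bp the ranks were 25.8 and 42.0 in beige, 20.6 and 5.0 in white and 29.6 and 46.0 in brown, and at 49223 bp, in Gnb1l, they were 22.9 and 18.0, 3.4 and 6.1, and 7.4 and 18.4.

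At Tnfrsf9 the region with the widest gap between beige and both other conditions lay at -21226 bp, in an intron of Park7. Park7 encodes DJ-1, a protein that protects against oxidative stress. The region ranked at 78.2 and 73.1 in beige, 37.0 and 33.5 in white and 45.1 and 31.3 in brown, and is shown for that reason. The capitals mark the ETS form CAGGAAG.
Tnfrsf9, chr4:150898829-150899029, plus strand: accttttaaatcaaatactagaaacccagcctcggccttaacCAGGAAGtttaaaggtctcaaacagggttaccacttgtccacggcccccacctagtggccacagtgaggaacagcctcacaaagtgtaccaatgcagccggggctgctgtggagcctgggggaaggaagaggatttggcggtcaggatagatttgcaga

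A neighbouring region of the same gene, at -18310 bp, ranked at 46.8 and 58.0 in beige, 22.4 and 36.7 in white and 24.8 and 22.2 in brown. The region at the shared 5′ end of Tnfrsf9 and Park7 went the other way against white, at 61.7 and 47.7 in beige and 80.4 and 68.0 in white. In brown it ranked at 69.8 and 59.6, overlapping both other conditions.

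Sp100 was divided. The region at 53677 bp, in an intron close to a start site of another of its transcripts, ranked at 92.8 and 95.1 in beige, 88.8 and 75.1 in white and 92.1 and 84.0 in brown. The region at 42479 bp, also in an intron, ranked at 43.6 and 28.6 in beige, 80.4 and 53.4 in white and 59.3 and 34.5 in brown. Beige was thus above both in the first, by 0.676 of a percentile, and below white in the second. In all 3 regions of Sp100 where beige ranked above both, the margin was at most 1.64 percentiles. By ranks of -log10 q none of these 3 stood above both, and at 107631 bp brown ranked above beige. The neighbour Sp140 is a relative of Sp100, and reads from related copies may not be told apart. The paper names uniquely mapped reads for its signal tracks.

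Tmem26 and Cited1 had no shared region in which beige ranked above or below white. At the Tmem26 promoter the ranks were 35.5 and 20.0 in beige, 13.4 and 27.7 in white and 25.5 and 37.7 in brown. At the Cited1 promoter they were 45.7 and 48.8 in beige, 45.6 and 57.1 in white and 53.5 and 68.4 in brown, so that brown was above beige.

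**Figure D5:**
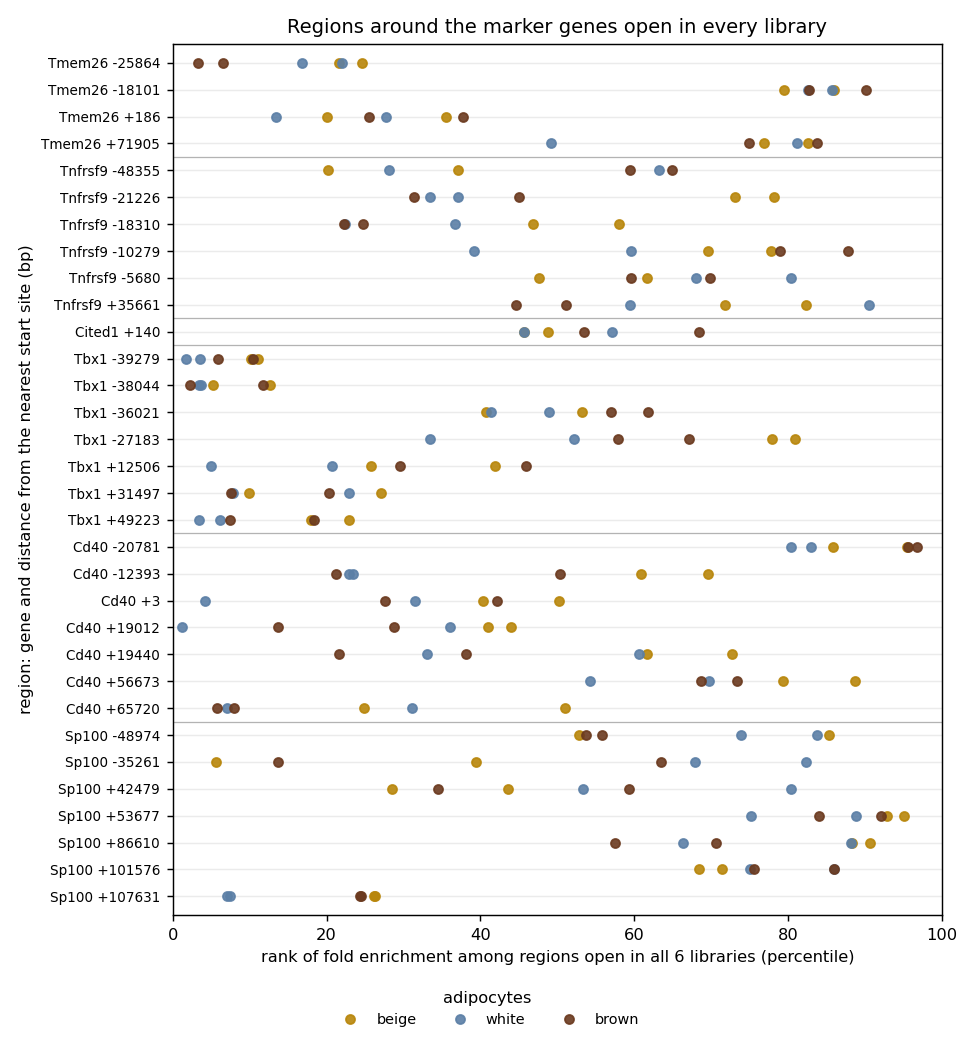
Rank of fold enrichment (percentile among the 58720 regions open in all libraries) for the 32 shared regions of the marker windows, named by gene and distance from the nearest start site in bp. Each row has 6 points, 1 per library; gold points (beige) lie to the right of all blue points (white) in 17 rows and to the left in 4.

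Motif matches in the 109 regions were near those of all regions for most motifs. AP-1 matched 22 (20.2%, against 21.2% of all regions), the ETS form CAGGAAG 15 (13.8%, against 10.2%) and the ETS form CCGGAAG 2 (1.83%, against 2.35%). The E-box CACGTG matched 10 (9.17%, against 3.89%) and the C/EBP site 7 (6.42%, against 12.6%). CTCF, a factor that organises chromatin loops, matched 3 (2.75%, against 2.97%). Of these, 2 were open in all libraries, a region each of Tnfrsf9 (-18310 bp) and Cd40 (19440 bp), and ranked higher in beige than in white and brown. Among all shared regions, 10.7% of those ranked higher in beige than in white had a CTCF match, against 5.12% of shared regions as a whole. No region of the markers had a match to the PPAR-RXR, thyroid receptor or glucocorticoid receptor element searched, each of which is found in under 1% of all regions.

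Partners of these proteins and other marker lists were counted beside the 6 genes, of which 3 had a promoter peak in all libraries. Of 15 partners, 11 did, among them Tnfsf9, the ligand of Tnfrsf9, and Traf2, Traf3, Traf5 and Traf6, adaptors of TNF receptor family signalling. Cd40lg, the ligand of Cd40 made by T cells, had none in any library. Of 8 interferon and NF-kB response genes, 6 had a promoter peak in all libraries. Of 14 other genes associated with beige fat 8 did, of 8 brown-selective genes 5, of 8 white-associated genes 5 and of 8 thermogenic genes 6. The share of beige-not-white regions was 5.86% around the other beige-associated genes, 9.49% around brown-selective genes, 7.58% around white-associated genes, 7.65% around thermogenic genes, 6.60% around adipocyte genes, 5.99% around the partners and 4.40% around interferon and NF-kB response genes. It was 6.76% around progenitor, 3.54% around macrophage, 3.19% around endothelial, 2.78% around mesothelial and 1.16% around lymphocyte genes, beside 3.67% for the 6 markers and 4.5% of all regions. Among the listed genes, the promoter of Hoxc9, a homeobox gene of posterior depots, was open in both beige and no brown library, and that of Dpt in all beige and white and no brown libraries. That of Tcf21, a white-associated transcription factor, was open in both brown and no beige library. Thy1, a progenitor surface marker, was the gene of these lists with a promoter open in both beige and no white library.

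The limit of 50 kb excluded no region of the kind sought close by. Within 5 kb inside the limit there were 6 regions and within 5 kb outside it 9, and none of either was open in beige and not in white.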

How the data were processed

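The data were the deposited peak lists of 6 ATAC-seq libraries (beige, white and brown adipocytes, 2 of each). The authors trimmed the reads, aligned them to mm10 with BWA and called peaks per library with MACS2 at a q value under 0.05. The brown libraries are not described in the paper, and their tools were taken from the submitters' processing notes. Fold enrichment as deposited is a ratio to local background within 1 library. The authors' -log10 q is that of a summit. Between libraries both were compared only as ranks. A deposited interval with several summits was counted once, at its highest -log10 q. Intervals that overlapped by 1 bp were joined with Python 3.11.15 and pandas 2.3.3. Start sites were those of protein-coding transcripts of the GENCODE M21 basic set. No test was run. Sequence came from GRCm38, and that of 1 region is not reported here. Joining and classing were tested on simulated data. The genes and lists were chosen with earlier results of these data known. Every region of a class of 5 or fewer and listed genes whose promoter was open in both libraries of one condition and none of another were named. The region of Tnfrsf9 at -21226 bp and the others named by rank were chosen after their values were seen.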

Additional observations from a re-analysis of the deposited data

How the results depend on the processing

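The rank comparison, the comparison with brown and their alternatives were chosen after seeing the data. No paired analysis was possible because the result comes from no test and the numbers of the libraries mark no shared animal or batch. Peaks at a q under 0.00001 left 82 regions, with means of 59 (beige), 43 (white) and 48 (brown) peaks. Of these regions 0 were white-not-beige (1.79% of all regions), 0 brown-not-beige (1.53%) and 2 beige-and-brown (1.7%). Equally long lists gave 97 regions, of which 1 was white-not-beige (2.29% of all regions), and a beige mean of 62 peaks. A window of 25 kb gave 71 regions and means of 42, 39.5 and 38.5 peaks. Of these regions 2 were white-not-beige (1.98% of all regions) and 3 brown-not-beige (1.56%). Of 17 shared regions, 10 ranked higher in beige than white (23.2% of all shared regions). In white than beige 2 ranked higher (24.8%), and in beige than both 6 (10.9%). A window of 100 kb gave 176 regions, of which 2 were beige-alone (1.94% of all regions), and means of 116, 108 and 110 peaks. Of 54 shared regions, 26 ranked higher in beige than white (23.2% of all shared regions) and 11 in white than beige (24.8%). Requiring a summit within the strongest peak gave 1 beige-and-brown region of 109 (1.25% of all regions). Requiring a share of 0.5 of both peaks to overlap gave 149 regions. Of these, 3 were beige-alone (1.89% of all regions), 4 beige-not-brown (4.36%) and 1 beige-and-brown (1.11%). All transcripts' start sites gave 5 promoters open in all libraries. The causes were not tested.

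Without 1 library at a time, a class needs fewer libraries to agree. The counts then ranged over 98 to 108 regions, 4 to 17 beige-not-white, 4 to 21 white-not-beige, 1 to 8 beige-alone and 1 to 3 beige-and-brown regions, and 3 to 5 promoters open in all libraries, with 5 without brown replicate 2. Beige-not-brown regions ranged from 2 to 11 and brown-not-beige regions from 7 to 16. Of all regions, between 1.645% and 3.16% were beige-and-brown in these runs. Beige-alone regions numbered 8 and 5 without beige replicates 1 and 2 (8.86% and 7.03% of all regions), 2 without white replicate 1 (2.78%) and 3 and 2 without brown replicates 1 and 2 (2.96% and 2.57%). Mean peaks ranged from 65 to 76 in beige, 57 to 72 in white and 61 to 74 in brown. Shared regions ranked higher in beige than white ranged from 17 to 23, in white than beige from 4 to 8 and in beige than both from 11 to 15. For beige than both, the share of all shared regions rose as well, from 10.9% with all libraries to between 13.1% and 19.6%. With depth unequal between beige and white and not given for brown, a weak peak missing from a list is not evidence of closed chromatin.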
